A study of Homo sapiens with 18 samples.

Results

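The 31 genes described here are the chaperones, folding enzymes, degradation factors, stress sensors and secretory-pathway genes of the endoplasmic reticulum (ER) that belong to the unfolded protein response (UPR). They were taken as a list of gene names, and all 31 were found among the 28277 genes listed in the count table. RNA-seq was made from OVCAR3-KRAB cells, the established ovarian cancer line OVCAR3 with dCas9-KRAB, a nuclease-dead Cas9 fused to a repressor domain. Cells carried sgCtl, a guide against the Gal4 promoter, or one of the guides sgXIST7 and sgXIST9 against the promoter of the long noncoding RNA XIST, and grew either in normoxia or under hypoxia (1% oxygen for 24 h). There were 6 groups of 3 replicates, 18 libraries in all, with 11794375 to 24906936 counts each. All groups share the line and the dCas9-KRAB construct, and the lines were selected as monoclonal cells, so that the effect of a guide and that of a clone cannot be told apart. Less RNA per cell and a different mix of cell states cannot be told apart in such bulk samples either.

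The ER folds proteins that enter the secretory pathway. When unfolded proteins accumulate, the sensors IRE1 (gene ERN1), PERK (EIF2AK3) and ATF6 are released from the chaperone BiP (HSPA5) and start the UPR: IRE1 splices the XBP1 mRNA, PERK phosphorylates eIF2alpha and favors translation of ATF4, and ATF6 is cleaved into a transcription factor. Spliced XBP1 and cleaved ATF6 induce chaperones and ER-associated degradation (ERAD), which returns misfolded proteins to the cytosol for the proteasome. Oxygen is the final electron acceptor for disulfide bond formation in the ER, and PERK signaling is known to be active in low oxygen. Gene-level counts do not tell spliced from unspliced XBP1, nor do they measure cleavage of ATF6 or phosphorylation of PERK.

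Many UPR targets carry an ER stress response element in the promoter, so promoter sequences of members are shown first for the changes described further on. RefSeq windows (GRCh38.p14, 250 bases before to 50 after the start site, 300 in all) were at hand for 27 of the 31 members, and not for PDIA3, SEC24D, DERL1 and DERL3. The element ERSE, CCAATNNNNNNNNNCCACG on either strand, was found in 8 of the 27 members (29.6%), against 0.0916% of 27305 genes with a window. The ERSE-II element, ATTGGNCCACG, was found in 3 members (11.1%) and in 0.0696% of all genes. Taken as either element, 11 of 27 members (40.7%) and 0.161% of all genes had a match. The UPR element TGACGTGG, which contains the core hypoxia response motif ACGTG, was found in VCP and HYOU1, and in 0.927% of all genes. The core motif ACGTG itself lay in 13 members (48.1%) and in 24.9% of all genes. These are letter matches in one window, and the members are textbook UPR genes, so the high share of ERSE is a description of the list.

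The 250 bases before the start site are given for 6 members, written 5′ to 3′ on the gene's strand, with ERSE, ERSE-II and UPR element matches in capitals. HSPA5 holds the classical ERSE, HERPUD1 and DNAJB9 showed 2 of the largest increases in hypoxia, SDF2L1 and CRELD2 were lower in hypoxia in all clones, and HYOU1 in the KD clones.
HSPA5, chr9:125241344-125241593 (minus strand): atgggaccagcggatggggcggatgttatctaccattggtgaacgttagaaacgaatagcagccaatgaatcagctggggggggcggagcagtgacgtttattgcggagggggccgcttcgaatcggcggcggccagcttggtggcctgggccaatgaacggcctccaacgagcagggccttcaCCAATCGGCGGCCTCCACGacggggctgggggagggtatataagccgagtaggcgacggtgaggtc
HERPUD1, chr16:56931892-56932141 (plus strand): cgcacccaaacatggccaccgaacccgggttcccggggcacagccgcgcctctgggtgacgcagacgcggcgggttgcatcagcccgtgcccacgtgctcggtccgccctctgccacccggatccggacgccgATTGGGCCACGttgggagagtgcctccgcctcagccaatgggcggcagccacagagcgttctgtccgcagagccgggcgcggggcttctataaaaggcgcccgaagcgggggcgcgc
DNAJB9, chr7:108569624-108569873 (plus strand): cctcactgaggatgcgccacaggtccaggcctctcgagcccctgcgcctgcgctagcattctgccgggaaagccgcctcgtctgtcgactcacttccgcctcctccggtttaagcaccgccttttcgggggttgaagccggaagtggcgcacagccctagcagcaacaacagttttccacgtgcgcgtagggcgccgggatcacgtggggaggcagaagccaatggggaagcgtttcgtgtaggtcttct
SDF2L1, chr22:21642052-21642301 (plus strand): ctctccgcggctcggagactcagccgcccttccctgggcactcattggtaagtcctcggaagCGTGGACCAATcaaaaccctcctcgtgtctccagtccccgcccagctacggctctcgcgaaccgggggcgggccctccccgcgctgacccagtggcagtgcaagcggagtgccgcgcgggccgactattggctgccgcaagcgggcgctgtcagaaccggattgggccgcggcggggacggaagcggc
CRELD2, chr22:49918384-49918633 (plus strand): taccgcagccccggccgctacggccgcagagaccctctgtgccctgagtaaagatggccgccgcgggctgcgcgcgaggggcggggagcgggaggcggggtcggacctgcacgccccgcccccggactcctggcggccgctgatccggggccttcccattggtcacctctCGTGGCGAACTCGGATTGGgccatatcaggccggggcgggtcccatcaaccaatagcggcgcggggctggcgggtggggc
HYOU1, chr11:119057206-119057455 (minus strand): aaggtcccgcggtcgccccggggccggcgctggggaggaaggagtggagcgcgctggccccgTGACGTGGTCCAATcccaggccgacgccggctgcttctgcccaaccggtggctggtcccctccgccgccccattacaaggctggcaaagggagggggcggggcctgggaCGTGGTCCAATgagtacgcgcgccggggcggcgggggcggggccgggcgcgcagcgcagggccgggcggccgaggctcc
The ERSE of HSPA5 spans the bases from 66 to 48 before the start site, and the ERSE-II of HERPUD1 those from 117 to 107 before it. DNAJB9 had none of the 3 elements in this window. The matches of SDF2L1 and CRELD2 lie on the reverse strand. HYOU1 has an ERSE-II at 185 to 175 bases before the start, overlapped by the UPR element, and another at 79 to 69 bases before it. Elements were therefore present among members that rose in hypoxia and among members that fell: 3 of 9 members with a window that rose in all 3 clones had one of the ERSE forms (CANX, HERPUD1 and ERO1B), as did 2 of 5 that fell in all 3 (SDF2L1 and CRELD2) and 6 of the 13 others (HSPA5, HSP90B1, PDIA6, CALR, XBP1 and HYOU1).

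In the sgCtl libraries in normoxia, levels per kilobase of exon (CPM per kb, mean ± SD, n = 3) spanned a wide range. The lectin chaperone gene CALR was highest at 297 ± 16.7, followed by HSP90B1, the ER Hsp90, at 192 ± 10.2. VCP, the ATPase that pulls ERAD substrates from the membrane, was at 147 ± 9.76, and SEC61B, a subunit of the translocon, was at 134 ± 17.3, within 1 SD of it. The disulfide isomerase genes P4HB and PDIA6 followed at 113 ± 4.06 and 101 ± 7.91. BiP (HSPA5) was at 61.3 ± 7.65, next to PDIA3 at 64.7 ± 4.26 and PDIA4 at 68.2 ± 2.22, with overlapping spreads. The sensors were low: 10.4 ± 0.253 for ATF6, 6.65 ± 0.174 for EIF2AK3 and 1.33 ± 0.327 for ERN1. ERO1B, an oxidase that recharges disulfide isomerases, was at 1.66 ± 0.122. DERL3, a derlin of secretory tissues, had 0 to 10 counts per library and was not tested, which leaves 30 members in all tests.

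Checks of the samples were as follows. XIST was at 479 ± 339 CPM (SD, n = 3) in sgCtl in normoxia, at 0.161 ± 0.101 in sgXIST7 and at 45.0 ± 13.9 in sgXIST9. In hypoxia it was at 171 ± 68.0, 0.117 ± 0.131 and 23.3 ± 8.12 CPM, respectively, so that it was far lower in the KD clones, with less depletion in sgXIST9. Of 10 known hypoxia-induced genes, 9 were higher in hypoxia in sgCtl, 9 in sgXIST7 and 9 in sgXIST9, and 8 in all 3 clones (ADM did not pass in sgCtl, nor EGLN3 in the KD clones). Among 7 ovarian epithelial markers, EPCAM, KRT8 and KRT18 were well detected and PAX8 and MSLN were low, while WT1 and MUC16, a known OVCAR3 product, had too few counts to be tested. Of 9 leukocyte, endothelial and fibroblast markers, only DCN had enough counts to be tested, at a mean of 1.56 CPM or less in every group. The third replicate of each hypoxia group stood apart: the SD of its log2 differences to the others was 0.51 to 0.84, against 0.41 to 0.45 between the first and second. Its part in the results was not tested beyond leaving it out.

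The first question was how the ER genes responded to low oxygen in each clone. The response was split: the ERAD genes HERPUD1, SYVN1, SEL1L, EDEM1 and DERL1, the disulfide isomerase genes P4HB and PDIA3, ERO1B, CANX, DNAJB9 and EIF2AK3 rose in all clones, while SDF2L1, CRELD2, PDIA4, VCP and DNAJB11 fell in all clones. At an adjusted p under 0.05 (edgeR), 15 of 30 members were higher and 6 lower in hypoxia in sgCtl, where 26.1% and 25.2% of all 14938 genes tested were. In sgXIST7, 12 were higher and 7 lower, beside 29.5% of all genes higher and 29.5% lower. In sgXIST9, 14 were higher and 6 lower, beside 30.5% and 24.8% of all genes. At this threshold, the share of members that rose was 50%, 40.0% and 46.7%, above the background in each clone. The share that fell was 20%, 23.3% and 20%, below it. The members were chosen with earlier results of these data known, so these shares describe the list. With the study's stricter rule (adjusted p under 0.01 and absolute log2 fold change above 1), 6, 10 and 5 of the 30 members were called in either direction. Of all genes, 19.7%, 27.3% and 23.3% were. By that rule the members were thus near the background in sgCtl, above it in sgXIST7 and below it in sgXIST9. The median log2 fold change of the 30 members was 0.37, 0.10 and 0.26 in sgCtl, sgXIST7 and sgXIST9, and that of all genes tested was 0.02, 0.01 and 0.09. In sgXIST7 the median of the members was 0.03 without sgXIST7 hypoxia replicate 3 and 0.21 without sgXIST7 hypoxia replicate 1.

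A total of 11 members rose in all 3 clones and 5 fell in all 3, which is 36.7% and 16.7% of the 30 tested. Among all genes, 17.5% rose and 16.7% fell in all 3 clones. A further 6 members rose in some clones only, 3 fell in some only, and PDIA6, CALR, XBP1, SEC61B and DERL2 passed the test in none. Without the third hypoxia replicates, PDIA6 was lower in sgCtl and sgXIST9, XBP1 was lower in sgXIST7 and DERL2 was higher in sgXIST9. Across the 30 members, Pearson's r between the responses was 0.85 for sgCtl and sgXIST7, 0.90 for sgCtl and sgXIST9 and 0.94 for both KD clones. Over all genes it was 0.77, 0.79 and 0.85. The points are genes of libraries normalized together and are not independent replicates.

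**Figure D1:**
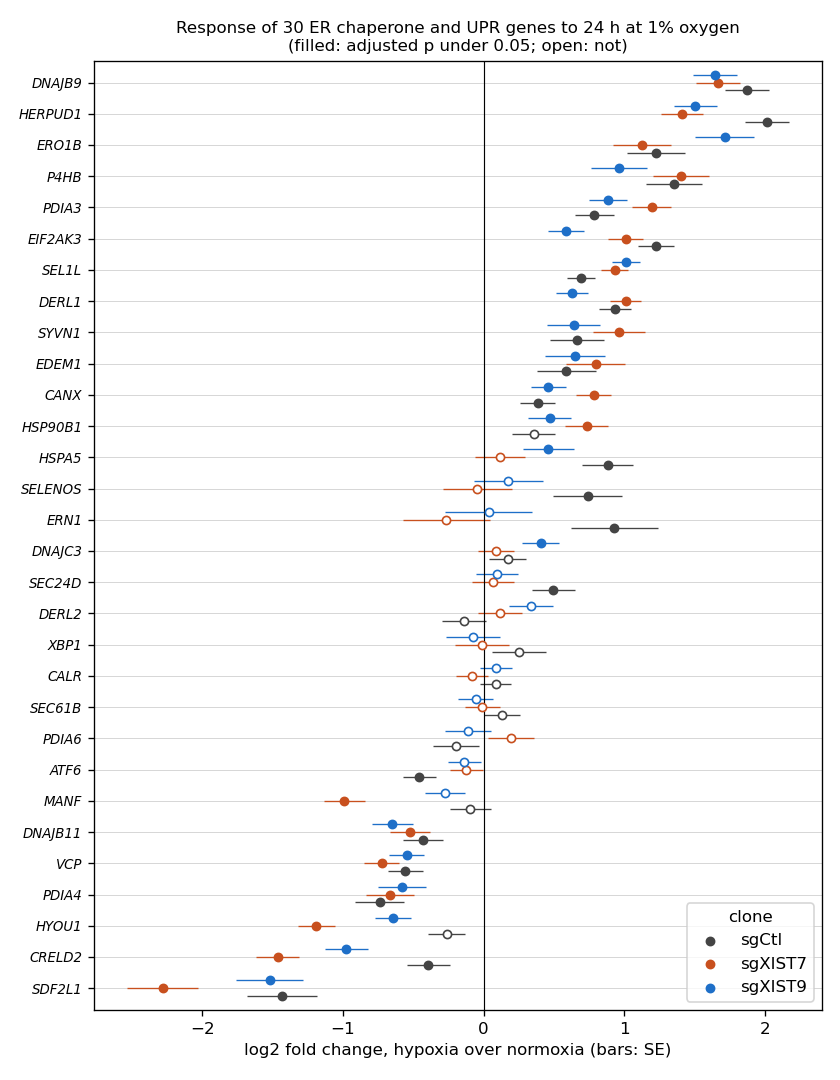
Log2 fold change in hypoxia over normoxia for the 30 members tested, by clone, sorted by the mean of the 3 clones; points are estimates, bars are SE and filled points have an adjusted p under 0.05. DNAJB9 and HERPUD1 lie at the top, between 1.41 and 2.02, and SDF2L1 at the bottom, between -2.28 and -1.43; CRELD2, HYOU1 and MANF lie further left in sgXIST7 than in sgCtl.

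Among the sensors, only the PERK gene moved in every clone. EIF2AK3 encodes PERK, the kinase that phosphorylates eIF2alpha. EIF2AK3 was at 31.8, 30.5 and 32.0 CPM in the 3 sgCtl libraries in normoxia and at 73.8, 76.9 and 69.4 in those in hypoxia. Its levels were 35.5, 34.3 and 30.8 CPM in normoxia and 55.7, 74.9 and 72.1 in hypoxia in sgXIST7. In sgXIST9, EIF2AK3 was at 32.6, 32.9 and 28.2 CPM and then at 48.3, 39.8 and 52.7. Every hypoxia library lay above every normoxia library of its clone, and the increase was smallest in sgXIST9. The log2 fold changes were 1.22 ± 0.13 in sgCtl, 1.01 ± 0.13 in sgXIST7 and 0.59 ± 0.13 in sgXIST9 (SE; adjusted p = 8.2e-07, 3.2e-06 and 0.00084).

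ERN1 encodes IRE1, the kinase and RNase that splices XBP1. In sgCtl, ERN1 was at 8.25, 13.3 and 9.87 CPM in normoxia and 18.4, 31.8 and 8.95 in hypoxia. For sgXIST7, ERN1 gave 11.9, 14.0 and 12.5 CPM in normoxia and 9.84, 10.6 and 11.6 in hypoxia. The ERN1 levels in sgXIST9 were 10.3, 9.93 and 9.99 and 10.5, 12.7 and 7.64 CPM, respectively. The sgCtl libraries in hypoxia were widely spread, with the third inside the normoxia range, and the hypoxia levels of the KD clones lay between 7.64 and 12.7 CPM. Log2 fold changes for ERN1 were 0.93 ± 0.31 in sgCtl, -0.26 ± 0.31 in sgXIST7 and 0.03 ± 0.31 in sgXIST9 (SE; adjusted p = 0.019, 0.48 and 0.94), so that it rose in sgCtl only by this test, and that call was lost without sgCtl normoxia replicate 1, sgCtl normoxia replicate 3 or sgCtl hypoxia replicate 2 (adjusted p of up to 0.23). The difference in response to sgCtl was -1.19 ± 0.44 (adjusted p = 0.091) for sgXIST7 and -0.89 ± 0.44 (adjusted p = 0.25) for sgXIST9.

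ATF6 encodes the membrane-bound transcription factor. ATF6 was at 79.5, 75.7 and 77.8 CPM in the 3 sgCtl libraries in normoxia and at 53.4, 53.2 and 63.4 in those in hypoxia. Its levels were 70.4, 65.1 and 64.9 CPM in normoxia and 58.8, 62.9 and 62.3 in hypoxia in sgXIST7. In sgXIST9, ATF6 was at 71.1, 73.1 and 69.0 CPM and then at 61.6, 53.4 and 79.0. The decrease in sgCtl was small. The oxygen groups did not overlap in sgCtl or in sgXIST7, and overlapped in sgXIST9. The log2 fold changes of ATF6 were -0.46 ± 0.12 in sgCtl, -0.12 ± 0.12 in sgXIST7 and -0.14 ± 0.12 in sgXIST9 (SE; adjusted p = 0.0042, 0.38 and 0.34). Without sgXIST9 hypoxia replicate 3, where ATF6 was highest, it also passed in sgXIST9, at -0.30 (adjusted p = 0.024). XBP1 is the transcription factor downstream of IRE1. In sgCtl, XBP1 was at 43.3, 37.7 and 50.8 CPM in normoxia and 53.0, 48.3 and 55.8 in hypoxia. For sgXIST7, XBP1 gave 51.5, 40.7 and 46.0 CPM in normoxia and 34.4, 37.9 and 65.5 in hypoxia. The XBP1 levels in sgXIST9 were 43.6, 39.9 and 39.4 and 36.3, 34.9 and 45.5 CPM, respectively. Groups overlapped in each clone, and the third sgXIST7 library in hypoxia was above all others. Total XBP1 mRNA did not pass the test in any clone, with log2 fold changes of 0.25 ± 0.19 in sgCtl, -0.01 ± 0.19 in sgXIST7 and -0.08 ± 0.19 in sgXIST9 (SE; adjusted p = 0.29, 0.96 and 0.76). Without the third hypoxia replicates, XBP1 was at -0.34 in sgXIST7 (adjusted p = 0.026).

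The Hsp70 and Hsp90 machinery held members that moved in opposite directions. HSPA5, or BiP, is the ER Hsp70 and the repressor of the sensors. HSPA5 was at 244, 268 and 209 CPM in the 3 sgCtl libraries in normoxia and at 431, 443 and 454 in those in hypoxia. Its levels were 306, 388 and 282 CPM in normoxia and 250.3, 361 and 448 in hypoxia in sgXIST7. In sgXIST9, HSPA5 was at 259.9, 274 and 227 CPM and then at 311, 313 and 422. In sgCtl every hypoxia library was above every normoxia library, while in sgXIST7 the groups overlapped. The log2 fold changes were 0.88 ± 0.18 in sgCtl, 0.12 ± 0.18 in sgXIST7 and 0.46 ± 0.18 in sgXIST9 (SE; adjusted p = 0.00068, 0.6 and 0.039), that is a 1.84-fold level in sgCtl. The sgXIST9 call was lost under 7 of the alternatives, 4 of them without a single library (sgXIST9 normoxia replicate 1, 2 or 3, or sgXIST9 hypoxia replicate 3), with an adjusted p of up to 0.18. HSP90B1 (GRP94) rose in both KD clones, by 0.73 ± 0.15 (adjusted p = 0.00062) and 0.47 ± 0.15 (adjusted p = 0.016), and was at 0.36 ± 0.15 (adjusted p = 0.063) in sgCtl. In sgCtl it passed under 5 of the alternatives, among them DESeq2 (adjusted p = 0.049) and the replicate block (adjusted p = 0.035). The sgXIST9 call for HSP90B1 was lost without sgXIST9 hypoxia replicate 3 (adjusted p = 0.059).

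DNAJB9 (ERdj4) is a J-domain cofactor of BiP that also binds IRE1. In sgCtl, DNAJB9 was at 9.59, 8.74 and 10.8 CPM in normoxia and 40.6, 37.0 and 29.3 in hypoxia. For sgXIST7, DNAJB9 gave 13.8, 10.4 and 13.1 CPM in normoxia and 33.1, 44.1 and 41.8 in hypoxia. The DNAJB9 levels in sgXIST9 were 11.2, 9.72 and 9.11 and 31.2, 33.0 and 29.5 CPM, respectively. Every hypoxia library lay well above the highest normoxia library of its clone. The DNAJB9 response was 1.87 ± 0.16 in sgCtl, 1.67 ± 0.15 in sgXIST7 and 1.64 ± 0.16 in sgXIST9 (SE; adjusted p = 9.2e-08, 1.2e-07 and 2.1e-07), the largest mean increase of the 30 members. DNAJB11 (ERdj3) is another J-domain cofactor that holds substrates for BiP. DNAJB11 was at 76.9, 65.4 and 69.7 CPM in the 3 sgCtl libraries in normoxia and at 57.7, 55.7 and 43.9 in those in hypoxia. Its levels were 96.2, 73.1 and 87.8 CPM in normoxia and 58.8, 48.2 and 72.6 in hypoxia in sgXIST7. In sgXIST9, DNAJB11 was at 77.2, 78.1 and 70.6 CPM and then at 48.8, 50.2 and 45.0. Its level fell modestly in each clone, with log2 fold changes of -0.43 ± 0.14 in sgCtl, -0.52 ± 0.14 in sgXIST7 and -0.65 ± 0.14 in sgXIST9 (SE; adjusted p = 0.02, 0.0049 and 0.0011). The sgCtl call for DNAJB11 was lost without sgCtl normoxia replicate 1 or sgCtl hypoxia replicate 3 (adjusted p of up to 0.079). DNAJC3 (p58IPK), a cochaperone that also inhibits PERK, rose in sgXIST9 by 0.41 ± 0.13 (adjusted p = 0.014) and was at 0.17 ± 0.13 (adjusted p = 0.29) in sgCtl and 0.09 ± 0.13 (adjusted p = 0.58) in sgXIST7. Without the third hypoxia replicates DNAJC3 also passed in sgCtl, at 0.27 (adjusted p = 0.038).

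SDF2L1 is a small partner of the ERdj3 and BiP complex. In sgCtl, SDF2L1 was at 20.7, 17.0 and 19.7 CPM in normoxia and 7.88, 9.13 and 3.899 in hypoxia. For sgXIST7, SDF2L1 gave 33.8, 24.7 and 28.3 CPM in normoxia and 5.92, 4.26 and 7.94 in hypoxia. The SDF2L1 levels in sgXIST9 were 30.4, 32.0 and 29.7 and 8.71, 12.2 and 11.2 CPM, respectively. No library in hypoxia reached the lowest library in normoxia of its clone, and the levels were low, which limits their precision. The log2 fold changes were -1.43 ± 0.25 in sgCtl, -2.28 ± 0.25 in sgXIST7 and -1.52 ± 0.24 in sgXIST9 (SE; adjusted p = 0.00015, 8.6e-07 and 5.1e-05), the largest decrease of all members. CRELD2, a secreted UPR target with isomerase activity, fell as well. CRELD2 was at 29.3, 27.2 and 26.0 CPM in the 3 sgCtl libraries in normoxia and at 21.5, 24.0 and 17.1 in those in hypoxia. Its levels were 44.4, 41.5 and 43.6 CPM in normoxia and 16.8, 11.6 and 18.9 in hypoxia in sgXIST7. In sgXIST9, CRELD2 was at 45.6, 48.3 and 43.8 CPM and then at 22.1, 25.4 and 22.5. The groups did not overlap in any clone, and the sgXIST7 decrease was the steepest. Log2 fold changes for CRELD2 were -0.39 ± 0.15 in sgCtl, -1.46 ± 0.15 in sgXIST7 and -0.97 ± 0.15 in sgXIST9 (SE; adjusted p = 0.04, 4.9e-07 and 4e-05). The small sgCtl decrease was lost under 10 of the alternatives (adjusted p of up to 0.15), 5 of them without a single library: sgCtl normoxia replicate 1, 2 or 3, or sgCtl hypoxia replicate 1 or 3.

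HYOU1 (GRP170) is the nucleotide exchange factor of BiP. In sgCtl, HYOU1 was at 236, 219 and 223 CPM in normoxia and 188, 208 and 169 in hypoxia. For sgXIST7, HYOU1 gave 288, 286 and 286 CPM in normoxia and 117, 109 and 151 in hypoxia. The HYOU1 levels in sgXIST9 were 254, 293 and 251 and 151, 159 and 200.3 CPM, respectively. Its hypoxia libraries lay below those in normoxia in each clone. HYOU1 fell in both KD clones but did not pass the test in sgCtl: -0.26 ± 0.13 in sgCtl, -1.19 ± 0.13 in sgXIST7 and -0.65 ± 0.13 in sgXIST9 (SE; adjusted p = 0.1, 8.4e-07 and 0.00049). MANF is a secreted ER stress protein that stabilizes BiP complexes. MANF was at 46.7, 42.5 and 49.3 CPM in the 3 sgCtl libraries in normoxia and at 45.9, 46.3 and 37.5 in those in hypoxia. Its levels were 54.1, 49.6 and 48.0 CPM in normoxia and 30.1, 21.0 and 25.2 in hypoxia in sgXIST7. In sgXIST9, MANF was at 49.1, 49.99 and 44.8 CPM and then at 42.5, 44.7 and 31.7. The groups overlapped in sgCtl, nearly touched in sgXIST9 and were far apart in sgXIST7. MANF fell in sgXIST7 only by this test, with log2 fold changes of -0.09 ± 0.14 in sgCtl, -0.99 ± 0.15 in sgXIST7 and -0.27 ± 0.14 in sgXIST9 (SE; adjusted p = 0.61, 1.9e-05 and 0.11).

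The lectin chaperones hold glycoproteins for folding. CANX (calnexin) is the membrane-bound one. In sgCtl, CANX was at 429, 386 and 406 CPM in normoxia and 525, 464 and 604 in hypoxia. For sgXIST7, CANX gave 595, 529 and 559 CPM in normoxia and 799.6, 939.9 and 1155 in hypoxia. The CANX levels in sgXIST9 were 498, 489.8 and 473 and 698, 601 and 711 CPM, respectively. Each hypoxia library was above each normoxia library of its clone. CANX rose by 0.38 ± 0.13 in sgCtl, 0.78 ± 0.13 in sgXIST7 and 0.46 ± 0.13 in sgXIST9 (SE; adjusted p = 0.018, 5e-05 and 0.0052), and the sgCtl call was lost without sgCtl normoxia replicate 2 or sgCtl hypoxia replicate 3 (adjusted p of up to 0.068). Exons of CANX, as those of HYOU1, are also annotated on a second contig, and how reads shared with it were counted is not given in the sources used here. CALR (calreticulin), the soluble one, was at 0.08 ± 0.11 (adjusted p = 0.55), -0.08 ± 0.11 (adjusted p = 0.55) and 0.09 ± 0.11 (adjusted p = 0.53).

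The disulfide isomerases also split. P4HB, or PDI, is both an isomerase and a subunit of the collagen prolyl hydroxylase. P4HB was at 285, 279 and 266 CPM in the 3 sgCtl libraries in normoxia and at 611, 555 and 949.9 in those in hypoxia. Its levels were 364, 386 and 361 CPM in normoxia and 753, 937 and 1254 in hypoxia in sgXIST7. In sgXIST9, P4HB was at 307, 321 and 301 CPM and then at 561, 495 and 756. Every hypoxia library exceeded its normoxia group, and the third replicate was highest in each clone. P4HB had log2 fold changes at 1.35 ± 0.20 in sgCtl, 1.41 ± 0.20 in sgXIST7 and 0.96 ± 0.20 in sgXIST9 (SE; adjusted p = 3.1e-05, 1.3e-05 and 0.00056). PDIA3 (ERp57) is the isomerase that works with the lectin chaperones. In sgCtl, PDIA3 was at 256, 228 and 230.5 CPM in normoxia and 433, 334 and 467 in hypoxia. For sgXIST7, PDIA3 gave 293, 265 and 277 CPM in normoxia and 555, 623 and 736 in hypoxia. The PDIA3 levels in sgXIST9 were 232, 237 and 236 and 440.0, 361 and 502 CPM, respectively. Again the groups did not overlap, and PDIA3 rose by 0.79 ± 0.14 in sgCtl, 1.20 ± 0.14 in sgXIST7 and 0.88 ± 0.14 in sgXIST9 (SE; adjusted p = 0.00016, 1.4e-06 and 4.3e-05). PDIA4 (ERp72) moved the other way. PDIA4 was at 226, 212 and 218 CPM in the 3 sgCtl libraries in normoxia and at 116, 110.02 and 168 in those in hypoxia. Its levels were 132, 124 and 129 CPM in normoxia and 69.4, 67.9 and 106 in hypoxia in sgXIST7. In sgXIST9, PDIA4 was at 235, 256 and 235 CPM and then at 152, 142 and 191. Levels in hypoxia lay below normoxia in every clone, with log2 fold changes of -0.74 ± 0.17 in sgCtl, -0.67 ± 0.17 in sgXIST7 and -0.58 ± 0.17 in sgXIST9 (SE; adjusted p = 0.0018, 0.0032 and 0.0085). PDIA6, which also attenuates IRE1 signaling, was at -0.20 ± 0.17 in sgCtl, 0.20 ± 0.16 in sgXIST7 and -0.11 ± 0.16 in sgXIST9 (SE; adjusted p = 0.34, 0.32 and 0.6) and passed the test in no clone. Without the third hypoxia replicates it was at -0.36 in sgCtl (adjusted p = 0.0046) and -0.28 in sgXIST9 (adjusted p = 0.023).

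ERO1B and its paralog ERO1A, which is no member, are the oxidases that reoxidize PDI with oxygen as acceptor. In sgCtl, ERO1B was at 8.65, 7.58 and 8.61 CPM in normoxia and 23.4, 17.4 and 17.2 in hypoxia. For sgXIST7, ERO1B gave 8.13, 4.50 and 6.10 CPM in normoxia and 13.4, 15.9 and 11.6 in hypoxia. The ERO1B levels in sgXIST9 were 5.49, 4.94 and 5.43 and 17.2, 14.2 and 20.8 CPM, respectively. ERO1B was at low counts, and its groups did not overlap. The log2 fold changes were 1.22 ± 0.21 in sgCtl, 1.13 ± 0.21 in sgXIST7 and 1.72 ± 0.21 in sgXIST9 (SE; adjusted p = 0.00012, 0.00017 and 3.4e-06). ERO1A is a known hypoxia-induced gene and rose as well, from 47.6 ± 2.69 to 257 ± 119 CPM in sgCtl (SD, n = 3), from 70.1 ± 2.36 to 649.5 ± 179 for sgXIST7, and for sgXIST9 from 54.7 ± 0.779 to 303 ± 155. Its log2 fold changes were 2.43 ± 0.33, 3.21 ± 0.34 and 2.47 ± 0.33 (SE; adjusted p = 1.4e-05, 5.2e-07 and 8.8e-06).

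Of 9 members of ERAD, 8 were tested. Of these, 6 rose in sgCtl, 5 in sgXIST7 and 5 in sgXIST9, and 1, VCP, fell in each clone. DERL2 and SELENOS account for the others, and DERL3 was not tested. Of all genes, 26.1%, 29.5% and 30.5% rose in these clones, and 25.2%, 29.5% and 24.8% fell. The ERAD genes are a small part of a list chosen with earlier results of these data known, and their share was not tested. HERPUD1 organizes the HRD1 ligase complex and is a target of all UPR arms. HERPUD1 was at 44.9, 42.6 and 47.4 CPM in the 3 sgCtl libraries in normoxia and at 177, 224 and 144 in those in hypoxia. Its levels were 51.3, 44.8 and 43.4 CPM in normoxia and 110.4, 109 and 152 in hypoxia in sgXIST7. In sgXIST9, HERPUD1 was at 36.1, 33.5 and 35.3 CPM and then at 95.4, 93.2 and 109. Each hypoxia library was well above the highest normoxia library of its clone, and sgCtl reached the highest levels. Its response was 2.02 ± 0.15 in sgCtl, 1.41 ± 0.15 in sgXIST7 and 1.505 ± 0.15 in sgXIST9 (SE; adjusted p = 3.1e-08, 6.2e-07 and 4.2e-07). SYVN1 (HRD1) is the ubiquitin ligase of that complex. In sgCtl, SYVN1 was at 16.2, 19.1 and 15.3 CPM in normoxia and 24.5, 29.5 and 26.1 in hypoxia. For sgXIST7, SYVN1 gave 17.9, 29.2 and 18.3 CPM in normoxia and 37.4, 48.4 and 41.3 in hypoxia. The SYVN1 levels in sgXIST9 were 15.8, 22.7 and 15.01 and 26.1, 28.9 and 28.4 CPM, respectively. One normoxia library of sgXIST7 and of sgXIST9 was high, but the groups did not overlap. SYVN1 rose by 0.66 ± 0.19 in sgCtl, 0.96 ± 0.19 in sgXIST7 and 0.64 ± 0.19 in sgXIST9 (SE; adjusted p = 0.008, 3e-04 and 0.0083). SEL1L is the scaffold that stabilizes HRD1. SEL1L was at 84.5, 82.1 and 80.6 CPM in the 3 sgCtl libraries in normoxia and at 149, 125 and 125 in those in hypoxia. Its levels were 84.5, 86.7 and 78.4 CPM in normoxia and 149, 169 and 159 in hypoxia in sgXIST7. In sgXIST9, SEL1L was at 71.0, 68.0 and 70.2 CPM and then at 137, 129 and 156. These were tight groups with a clear gap, at 0.69 ± 0.10 in sgCtl, 0.93 ± 0.10 in sgXIST7 and 1.01 ± 0.10 in sgXIST9 (SE; adjusted p = 1.9e-05, 4.5e-07 and 2.4e-07).

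EDEM1 trims mannose from misfolded glycoproteins to mark them for ERAD. In sgCtl, EDEM1 was at 58.0, 62.4 and 53.8 CPM in normoxia and 83.3, 67.8 and 111 in hypoxia. For sgXIST7, EDEM1 gave 79.0, 85.9 and 75.5 CPM in normoxia and 109, 148 and 161 in hypoxia. The EDEM1 levels in sgXIST9 were 58.8, 58.4 and 58.4 and 86.3, 62.3 and 127 CPM, respectively. One sgXIST9 library in hypoxia, at 62.3 CPM, was barely above the normoxia range, and the third replicates were highest. EDEM1 rose by 0.59 ± 0.21 in sgCtl, 0.80 ± 0.21 in sgXIST7 and 0.65 ± 0.21 in sgXIST9 (SE; adjusted p = 0.029, 0.0038 and 0.015). Its sgCtl call was lost without sgCtl normoxia replicate 1, sgCtl normoxia replicate 3 or sgCtl hypoxia replicate 3 (adjusted p of up to 0.14), and its sgXIST9 call without sgXIST9 hypoxia replicate 3 (adjusted p = 0.13). DERL1 is a channel-forming derlin of the retrotranslocation machinery. DERL1 was at 48.5, 44.2 and 44.5 CPM in the 3 sgCtl libraries in normoxia and at 88.3, 97.7 and 76.6 in those in hypoxia. Its levels were 46.7, 39.2 and 46.1 CPM in normoxia and 85.2, 82.2 and 98.4 in hypoxia in sgXIST7. In sgXIST9, DERL1 was at 47.2, 45.8 and 45.7 CPM and then at 74.1, 76.5 and 63.4. No overlap was seen between the oxygen groups, and DERL1 rose by 0.94 ± 0.11 in sgCtl, 1.01 ± 0.11 in sgXIST7 and 0.63 ± 0.11 in sgXIST9 (SE; adjusted p = 4.2e-06, 1e-06 and 0.00017). DERL2, a related derlin, was at -0.14 ± 0.16 in sgCtl, 0.12 ± 0.16 in sgXIST7 and 0.34 ± 0.16 in sgXIST9 (SE; adjusted p = 0.47, 0.55 and 0.076) and passed the test in no clone. It passed in sgXIST9 with upper-quartile scaling (0.43, adjusted p = 0.036), with the replicate block (0.33, adjusted p = 0.037), without sgXIST9 hypoxia replicate 3 (0.48, adjusted p = 0.016) and without the third hypoxia replicates (0.48, adjusted p = 0.003).

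VCP (p97) is the cytosolic ATPase that extracts substrates. In sgCtl, VCP was at 646, 598 and 683 CPM in normoxia and 407, 365 and 538 in hypoxia. For sgXIST7, VCP gave 806, 688 and 815 CPM in normoxia and 429, 465 and 503 in hypoxia. The VCP levels in sgXIST9 were 686, 659 and 671 and 465, 430.1 and 484 CPM, respectively. All hypoxia libraries were below all normoxia libraries of the same clone. VCP fell, at log2 fold changes of -0.56 ± 0.12 in sgCtl, -0.73 ± 0.12 in sgXIST7 and -0.55 ± 0.12 in sgXIST9 (SE; adjusted p = 0.0013, 9.7e-05 and 0.0013). SELENOS (VIMP), which anchors VCP at the ER membrane, rose in sgCtl by 0.74 ± 0.25 (adjusted p = 0.019), and was at -0.05 ± 0.25 (adjusted p = 0.89) in sgXIST7 and 0.18 ± 0.24 (adjusted p = 0.57) in sgXIST9. Its sgCtl libraries in hypoxia were at 42.6, 48.7 and 22.5 CPM, the third within the normoxia range of 23.8, 22.7 and 22.04. The SELENOS call was lost without sgCtl normoxia replicate 2 or 3, or sgCtl hypoxia replicate 1 or 2 (adjusted p of up to 0.11). Of the secretory members, SEC24D, a cargo adaptor of COPII vesicles, rose in sgCtl by 0.50 ± 0.15 (adjusted p = 0.011) and was at 0.07 ± 0.15 (adjusted p = 0.71) and 0.10 ± 0.15 (adjusted p = 0.6) in the KD clones. SEC61B was at 0.13 ± 0.13 in sgCtl, -0.01 ± 0.13 in sgXIST7 and -0.06 ± 0.13 in sgXIST9 (SE; adjusted p = 0.4, 0.95 and 0.72).

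**Figure D2:**
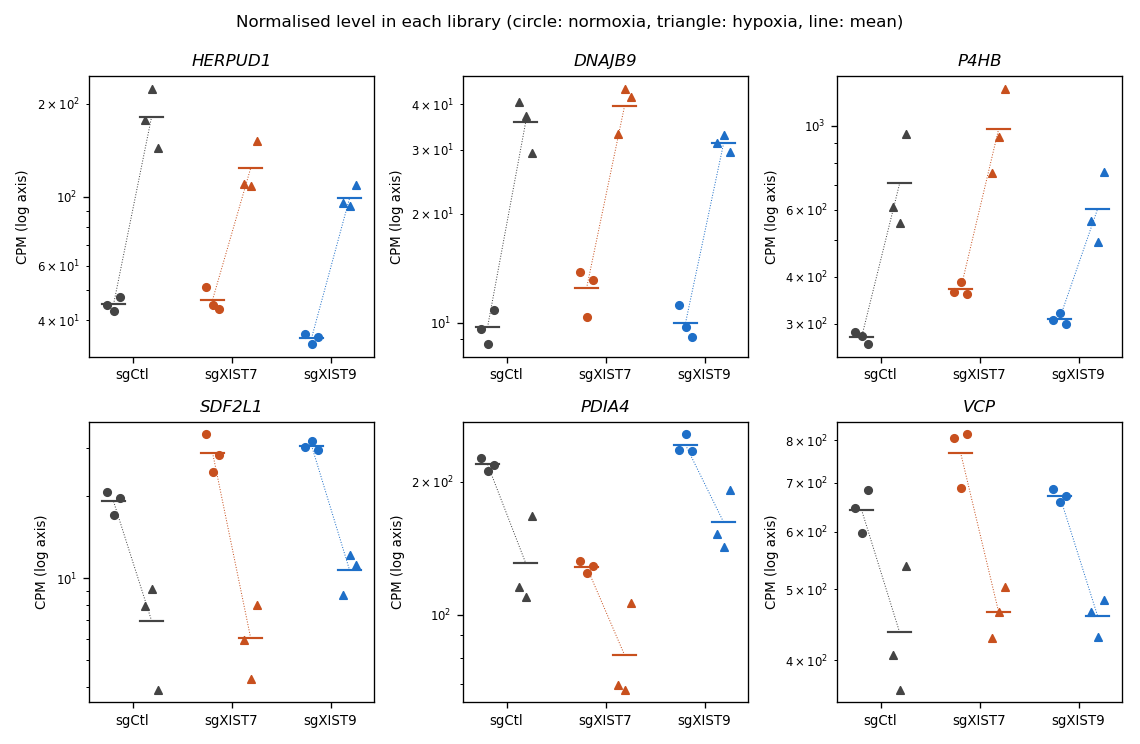
CPM on a log axis in each of the 18 libraries for 3 members that rose in hypoxia in all clones (HERPUD1, DNAJB9 and P4HB) and 3 that fell in all (SDF2L1, PDIA4 and VCP); circles are normoxia, triangles hypoxia, short lines group means (n = 3). The triangles lie above the circles of their clone in the first 3 panels and below them in the last 3, and PDIA4 is lower in sgXIST7 than in the other clones.

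The neighbors of these genes in the pathway were examined as lists grouped by function. The lists were chosen with earlier results of these data known, so their shares describe the lists and are no test of them. Among all genes, 26.1%, 29.5% and 30.5% rose in sgCtl, sgXIST7 and sgXIST9, and 25.2%, 29.5% and 24.8% fell. The list named PERK arm held 10 genes, ATF4 and its targets. The name is that of the list: PERK activity was not measured, and what raised these genes was not tested. Of the 10 genes, 9 rose in sgCtl, 10 in sgXIST7 and 8 in sgXIST9 (90%, 100% and 80%). By edgeR 0 fell in any clone, which is also the count at an unadjusted p under 0.05 and by DESeq2. Their median log2 fold change was 1.78, 2.07 and 1.34. ATF3, a stress-induced transcription factor, rose by 5.88 ± 0.59, 5.91 ± 0.61 and 3.79 ± 0.56 (SE; adjusted p = 5.7e-07, 4e-07 and 2.8e-05) from levels below 1 CPM. CEBPB rose by 1.32 ± 0.17, 1.98 ± 0.19 and 1.81 ± 0.19 (adjusted p = 9.5e-06, 1.4e-07 and 5.2e-07). CHAC1, a glutathione-degrading enzyme, rose by 3.38 ± 0.51, 3.83 ± 0.51 and 3.29 ± 0.53 (adjusted p = 3.8e-05, 7.1e-06 and 5.9e-05). DDIT3 (CHOP), the proapoptotic factor of the UPR, rose by 1.75 ± 0.25, 2.46 ± 0.25 and 1.27 ± 0.24 (adjusted p = 2.2e-05, 3e-07 and 0.00027).

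Of 19 other UPR regulators tested, 3, 3 and 2 rose (15.8%, 15.8% and 10.5%) and 8, 5 and 5 fell (42.1%, 26.3% and 26.3%), with medians of -0.30, -0.21 and -0.14. TMBIM6, an inhibitor of IRE1, rose by 0.74 ± 0.08, 0.88 ± 0.08 and 0.67 ± 0.08 (SE; adjusted p = 1.7e-06, 1.3e-07 and 3.3e-06). RTCB, the ligase that joins the spliced XBP1 exons, fell in each clone, at -0.41 ± 0.13, -0.93 ± 0.13 and -0.95 ± 0.13 (adjusted p = 0.014, 1.2e-05 and 1.1e-05). Of 30 other ER folding and quality control genes, 10, 10 and 11 rose (33.3%, 33.3% and 36.7%) and 6, 4 and 7 fell (20%, 13.3% and 23.3%), near the share of all genes for those that rose, with medians of 0.16, 0.08 and 0.26. OS9, an ERAD lectin, rose by 0.68 ± 0.09, 1.03 ± 0.09 and 0.99 ± 0.09 (adjusted p = 6.2e-06, 3.7e-08 and 7.6e-08). CRELD1, the paralog of CRELD2, rose by 1.42 ± 0.22, 2.18 ± 0.21 and 2.55 ± 0.22 (adjusted p = 4.7e-05, 1.9e-07 and 6.3e-08), opposite to CRELD2. Of 23 other translocon and coat genes, 8, 9 and 7 rose (34.8%, 39.1% and 30.4%) and 4, 5 and 6 fell (17.4%, 21.7% and 26.1%), with medians of 0.14, -0.0013 and 0.03. SEC61G, a translocon subunit, rose by 2.20 ± 0.25, 2.78 ± 0.26 and 2.08 ± 0.25 (adjusted p = 2.4e-06, 1.2e-07 and 3e-06), whereas SEC61B passed in no clone.

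**Figure D3:**
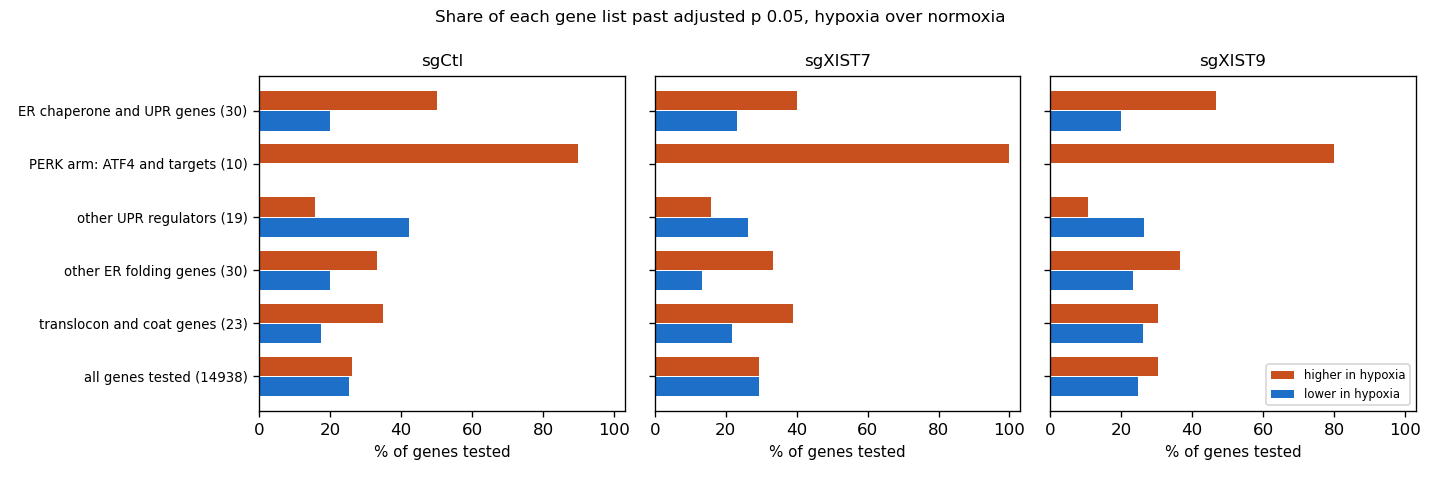
Percent of the genes tested in each list, and of all 14938 genes, that were higher or lower in hypoxia at an adjusted p under 0.05, by clone. The list named PERK arm, ATF4 and its targets, reaches 90%, 100% and 80% higher and 0 lower. PERK activity was not measured. The members reach 50%, 40.0% and 46.7% higher. The members and lists were chosen with earlier results of these data known.

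The second question was whether the XIST KD clones differed from sgCtl. In normoxia in sgXIST7, 4 of 30 members were higher and 2 lower than in sgCtl, beside 11.1% and 10.5% of all genes, and in sgXIST9 3 were higher and 1 lower, beside 10.5% and 11.0%. PDIA6 and CRELD2 were higher in both clones, where 6.74% of all genes were, and 0 members were lower in both by edgeR, where 6.11% of all genes were. At an unadjusted p under 0.05, 1 member (DERL2) was lower in both, and 0 were by DESeq2. Both comparisons use the same sgCtl libraries. PDIA6 was higher by 0.56 ± 0.17 (adjusted p = 0.02) and 0.48 ± 0.17 (adjusted p = 0.047). Each normoxia library of the KD clones was above all sgCtl libraries for both genes. CRELD2 was higher by 0.65 ± 0.15 (adjusted p = 0.0042) and 0.74 ± 0.15 (adjusted p = 0.0016). The call for PDIA6 was lost without single libraries: 4 of 6 in sgXIST7 (sgCtl replicates 2 and 3, sgXIST7 replicates 1 and 3) and each of 6 in sgXIST9 (adjusted p of up to 0.085 and 0.17). The count in sgXIST7 was 3 without sgCtl normoxia replicate 2 or sgXIST7 normoxia replicate 1, and that in sgXIST9 was 1 without any 1 of its 6 libraries. The counts depended on the fit. With only the groups compared, 15 members passed in sgXIST7 (13 higher and 2 lower) and 12 in sgXIST9 (8 higher and 4 lower). The shares of all genes come from the main fit of 6 groups only, so counts from other fits have no background beside them. With the replicate block, HSP90B1 passed as well in sgXIST7, at 0.38 (adjusted p = 0.041). The median log2 fold change of the members was 0.27 in sgXIST7 and 0.06 in sgXIST9, the latter 0.02 without sgXIST9 normoxia replicate 2 and 0.10 without sgXIST9 normoxia replicate 3.

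Other differences in normoxia were seen in one clone. PDIA4 was lower in sgXIST7, at a log2 fold change of -0.77 ± 0.17 (adjusted p = 0.0033), and was at 0.15 ± 0.17 (adjusted p = 0.61) in sgXIST9. DERL2 was lower in sgXIST7 as well, at -0.58 ± 0.16 (adjusted p = 0.013), and CANX and CALR were higher there, at 0.46 ± 0.13 (adjusted p = 0.013) and 0.33 ± 0.11 (adjusted p = 0.047). The DERL2 call was lost without sgCtl replicate 1 or sgXIST7 replicate 2 and the CANX call without sgCtl replicate 2 or sgXIST7 replicate 1 (adjusted p of up to 0.067 and 0.056), and the CALR call without any 1 of the 6 libraries (up to 0.14). In sgXIST9, SDF2L1 was higher at 0.68 ± 0.24 (adjusted p = 0.048) and ERO1B lower at -0.65 ± 0.21 (adjusted p = 0.037), and each of these calls was lost when any 1 of the 6 libraries was left out (adjusted p of up to 0.16 and 0.12). HSPA5, XBP1 and the sensors passed in neither clone, except for HSPA5 in sgXIST7 with only the groups compared (0.45, adjusted p = 0.045): HSPA5 was at 0.44 ± 0.18 (adjusted p = 0.1) and 0.08 ± 0.18 (adjusted p = 0.82).

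In hypoxia in sgXIST7, 7 members were higher and 7 lower than in sgCtl, beside 20.7% and 21.6% of all genes. In sgXIST9, 1 was higher and 4 were lower, beside 15.5% and 14.1%. With only the groups compared, 7 members passed in sgXIST7 and 2 in sgXIST9, fewer than in normoxia under the same fit. With the replicate block, CANX at 0.34 (adjusted p = 0.029) and XBP1 at -0.44 (adjusted p = 0.042) passed as well in sgXIST9. PDIA6 was higher in both clones (10.6% of all genes were), and HERPUD1 and ERN1 were lower in both (10.0% of all genes were). PDIA6 was at 344, 296 and 334 CPM in the 3 sgCtl libraries in normoxia and at 263, 240.3 and 347 in those in hypoxia. Its levels were 517, 434 and 489.6 CPM in normoxia and 461, 501 and 689 in hypoxia in sgXIST7. In sgXIST9, PDIA6 was at 457, 453 and 449 CPM and then at 389.6, 355 and 515. In hypoxia each KD library was above each sgCtl library. PDIA6 was higher by 0.96 ± 0.17 (adjusted p = 0.00025) in sgXIST7 and 0.57 ± 0.17 (adjusted p = 0.016) in sgXIST9; the second call was lost without sgCtl hypoxia replicate 1 or 2 or sgXIST9 hypoxia replicate 3 (adjusted p of up to 0.11). HERPUD1 was at -0.56 ± 0.15 (adjusted p = 0.0064) and -0.87 ± 0.15 (adjusted p = 0.00027), and the first call was lost without sgCtl hypoxia replicate 2 (adjusted p of up to 0.084 over the alternatives). ERN1 was at -0.90 ± 0.31 (adjusted p = 0.026) and -0.95 ± 0.31 (adjusted p = 0.027). The ERN1 calls rest on the high second sgCtl library: without it the log2 fold change was -0.38 in sgXIST7 and -0.42 in sgXIST9 (adjusted p = 0.3 and 0.29). They were also lost without sgXIST7 hypoxia replicate 1 or 2, and without sgXIST9 hypoxia replicate 1 or 3.

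Of the other members that differed in sgXIST7 in hypoxia, 6 were above sgCtl and 5 below it. HSP90B1 was higher by 0.75 ± 0.15 (adjusted p = 0.00099), CANX by 0.86 ± 0.13 (adjusted p = 5.2e-05), PDIA3 by 0.63 ± 0.14 (adjusted p = 0.0015), SYVN1 by 0.67 ± 0.19 (adjusted p = 0.0089), EDEM1 by 0.67 ± 0.21 (adjusted p = 0.017) and SEL1L by 0.25 ± 0.10 (adjusted p = 0.045). Below sgCtl were MANF at -0.77 ± 0.15 (adjusted p = 0.00054), HYOU1 at -0.58 ± 0.13 (adjusted p = 0.002), PDIA4 at -0.69 ± 0.17 (adjusted p = 0.0042), SELENOS at -0.75 ± 0.25 (adjusted p = 0.021) and CRELD2 at -0.42 ± 0.16 (adjusted p = 0.038). Single libraries ended the calls of SEL1L, EDEM1, SELENOS, CRELD2 and SYVN1, with adjusted p of up to 0.21, 0.092, 0.13, 0.23 and 0.05, and the library common to these was sgXIST7 hypoxia replicate 2. In sgXIST9 the remaining 2 members were EIF2AK3 at -0.65 ± 0.12 (adjusted p = 0.00083) and SEC24D at -0.44 ± 0.15 (adjusted p = 0.036), the latter lost without sgCtl replicate 2 or sgXIST9 replicates 1 or 2 in hypoxia (adjusted p of up to 0.14). Median log2 fold changes were -0.04 and -0.01, and both changed sign under an alternative (0.02 without sgXIST7 hypoxia replicate 1, and 0.01 with upper-quartile scaling). Without the third hypoxia replicates, 17 members passed in sgXIST7 and 13 in sgXIST9, the 8 gained in sgXIST9 being CANX, DERL1, HSP90B1, HSPA5, HYOU1, PDIA4, SELENOS and XBP1; of these libraries, sgCtl hypoxia replicate 3 alone took the sgXIST9 count from 5 to 10. That count was 3 without sgCtl hypoxia replicate 2 or sgXIST9 hypoxia replicate 1 or 3. The sgXIST7 count of 14 was 8 without sgCtl hypoxia replicate 2 and 9 without sgXIST7 hypoxia replicate 2. The shares of all genes in these reduced fits were not computed. By the study's rule, 0 members were called in these 4 comparisons by edgeR, by DESeq2, or by edgeR with an unadjusted p under 0.05 and the same fold, where 7.76% and 7.70% of all genes were called in normoxia and 14.0% and 9.53% in hypoxia.

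**Figure D4:**
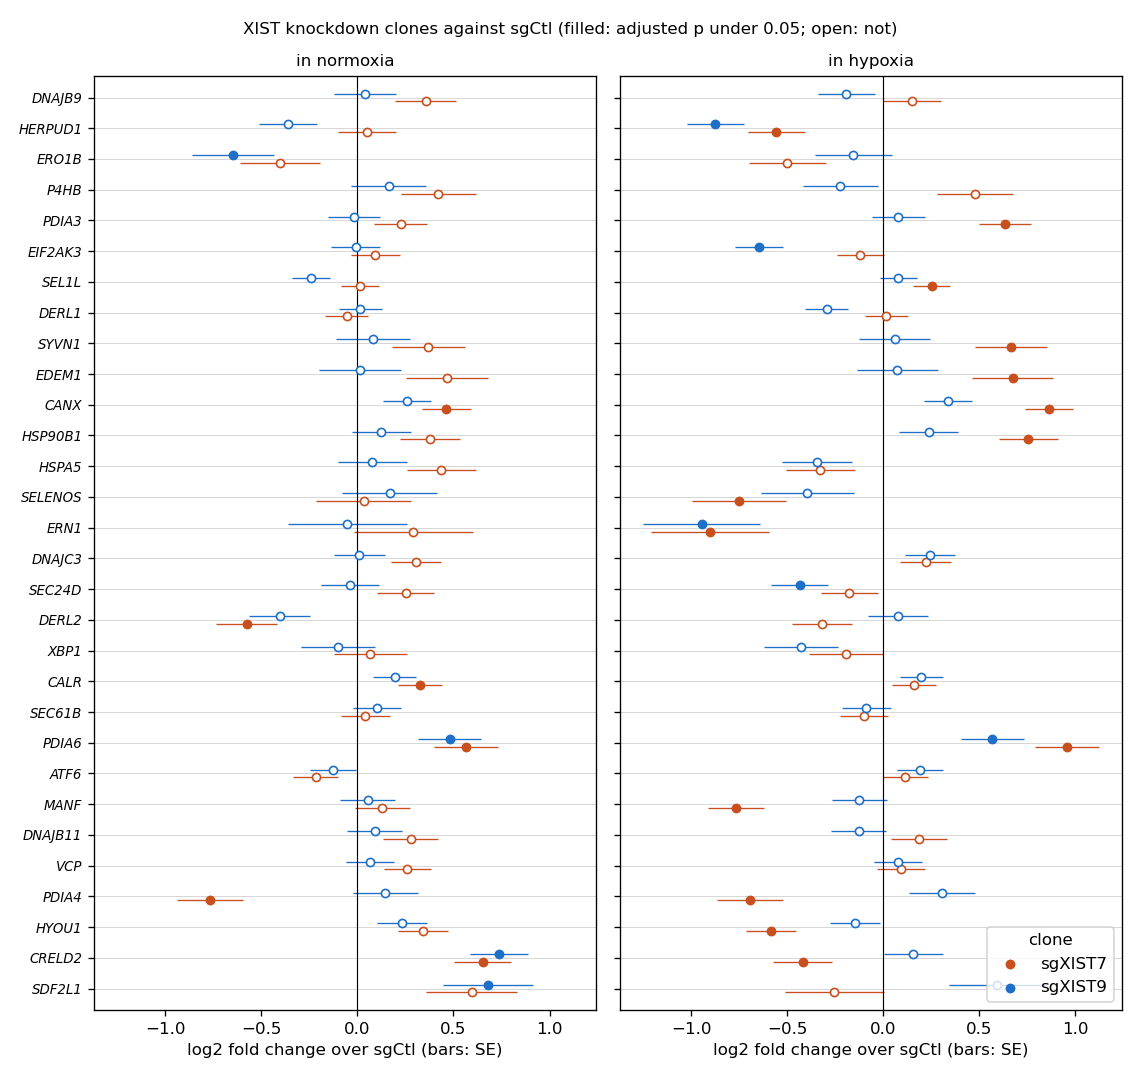
Log2 fold change of each KD clone over sgCtl for the 30 members, in normoxia (left) and hypoxia (right), in the order of the hypoxia response; points are estimates, bars SE, filled points have an adjusted p under 0.05. PDIA6 is filled on the right of 0 in all 4 comparisons, HERPUD1 and ERN1 are filled on the left in hypoxia, and more sgXIST7 than sgXIST9 points are filled in hypoxia.

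The 2 KD clones were also compared with each other. In normoxia PDIA4 differed, lower in sgXIST7 at -0.91 ± 0.17 (adjusted p = 0.0018); 0 members were higher by edgeR and by DESeq2, 4 at an unadjusted p under 0.05, and 1 was lower, beside 5.22% and 3.66% of all genes. With only the groups compared, 7 more members passed, all higher in sgXIST7 (DNAJC3, EDEM1, HERPUD1, HSP90B1, P4HB, PDIA3 and SEL1L). In hypoxia 6 members were higher and 5 lower in sgXIST7, beside 8.81% and 9.21% of all genes. PDIA4 was again lower, at -0.999 ± 0.17 (adjusted p = 0.00073), with SDF2L1 at -0.85 ± 0.25 (adjusted p = 0.027), MANF at -0.64 ± 0.15 (adjusted p = 0.0056), CRELD2 at -0.58 ± 0.15 (adjusted p = 0.016) and HYOU1 at -0.44 ± 0.13 (adjusted p = 0.028). P4HB, SYVN1, PDIA3, EIF2AK3, CANX and HSP90B1 were higher, between 0.52 and 0.70. Apart from PDIA4, these calls were lost under at least 1 alternative. The count of 11 fell by more than 1.5 times without sgXIST7 hypoxia replicate 2, sgXIST7 hypoxia replicate 3 or sgXIST9 hypoxia replicate 2, to 7, 6 and 5 members, and it was 2 with only the groups compared. The study's rule called 0 members in either comparison, with edgeR, DESeq2 or an unadjusted p under 0.05, where 3.40% and 4.46% of all genes were called.

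The last question was whether the hypoxia response itself differed from that of sgCtl, tested as an interaction. In sgXIST7, 0 members had a higher and 3 a lower response, beside 4.60% and 4.79% of all genes; in sgXIST9, 0 were higher and 1 lower, beside 3.17% and 2.10%. At an unadjusted p under 0.05, edgeR gave 2 members with a higher response in each, and DESeq2 gave 0. The 3 in sgXIST7 were CRELD2 (chr22:49918634-49927537), HYOU1 (chr11:119044188-119057205) and MANF (chr3:51385291-51389397), secreted or soluble ER proteins. Their responses differed by -1.07 ± 0.22 (adjusted p = 0.0079), -0.93 ± 0.18 (adjusted p = 0.0072) and -0.90 ± 0.20 (adjusted p = 0.014) on the log2 scale. In sgXIST9 the same differences were -0.58 ± 0.21 (adjusted p = 0.12), -0.38 ± 0.18 (adjusted p = 0.24) and -0.18 ± 0.20 (adjusted p = 0.65). For CRELD2, the larger part of the estimated difference lay in normoxia, where sgXIST7 was at 43.2 ± 1.47 and sgCtl at 27.5 ± 1.64 CPM (SD, n = 3). MANF differed mainly in hypoxia, at 25.4 ± 4.56 against 43.2 ± 4.96 CPM. These 3 calls held under each of the 20 other fits with the same threshold, between -1.33 and -0.88 for CRELD2, -1.14 and -0.83 for HYOU1 and -1.04 and -0.77 for MANF. In sgXIST9, EIF2AK3 (chr2:88556740-88627464) rose less than in sgCtl, at -0.64 ± 0.18 (adjusted p = 0.046), and this call was lost under 11 of 20 alternatives, among them each removal of 1 library except sgCtl or sgXIST9 hypoxia replicate 3 (adjusted p of up to 0.12). The median difference over the members was -0.12 in sgXIST7 and -0.13 in sgXIST9. It was -0.02 in sgXIST7 without sgXIST7 normoxia replicate 1 and -0.25 without the third hypoxia replicates, and -0.23 in sgXIST9 without sgXIST9 hypoxia replicate 2. HSPA5 was at -0.76 ± 0.26 (adjusted p = 0.068) in sgXIST7 and passed with the replicate block (-0.77, adjusted p = 0.046), with DESeq2 (-0.77, adjusted p = 0.04) and without sgCtl or sgXIST7 hypoxia replicate 3 (adjusted p = 0.049 and 0.031). Exons of HYOU1 are also annotated on a second contig. The study's rule called 1 member (CRELD2) in sgXIST7 and 0 in sgXIST9 by edgeR and by DESeq2, beside 1.52% and 1.01% of all genes. With an unadjusted p under 0.05 and the same fold, edgeR gave 2 in sgXIST7 (CRELD2 and ERN1) and 0 in sgXIST9.

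The count of interactions depended on the third hypoxia replicates. Without them, 12 members passed in sgXIST7, 3 higher and 9 lower, with ATF6, ERN1, HERPUD1, HSP90B1, HSPA5, PDIA6, SDF2L1, SELENOS and XBP1 added, and 6 passed in sgXIST9, 1 higher and 5 lower, with CRELD2, DERL2, ERN1, HERPUD1 and HYOU1 added. Leaving out sgCtl hypoxia replicate 3 alone gave 10 and 4, and sgXIST7 hypoxia replicate 3 alone gave 5. The 4 members that passed with all libraries were among these. The share of all genes past the test in these fits was not computed, so whether the rise in counts is particular to the members was not tested.

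**Figure D5:**
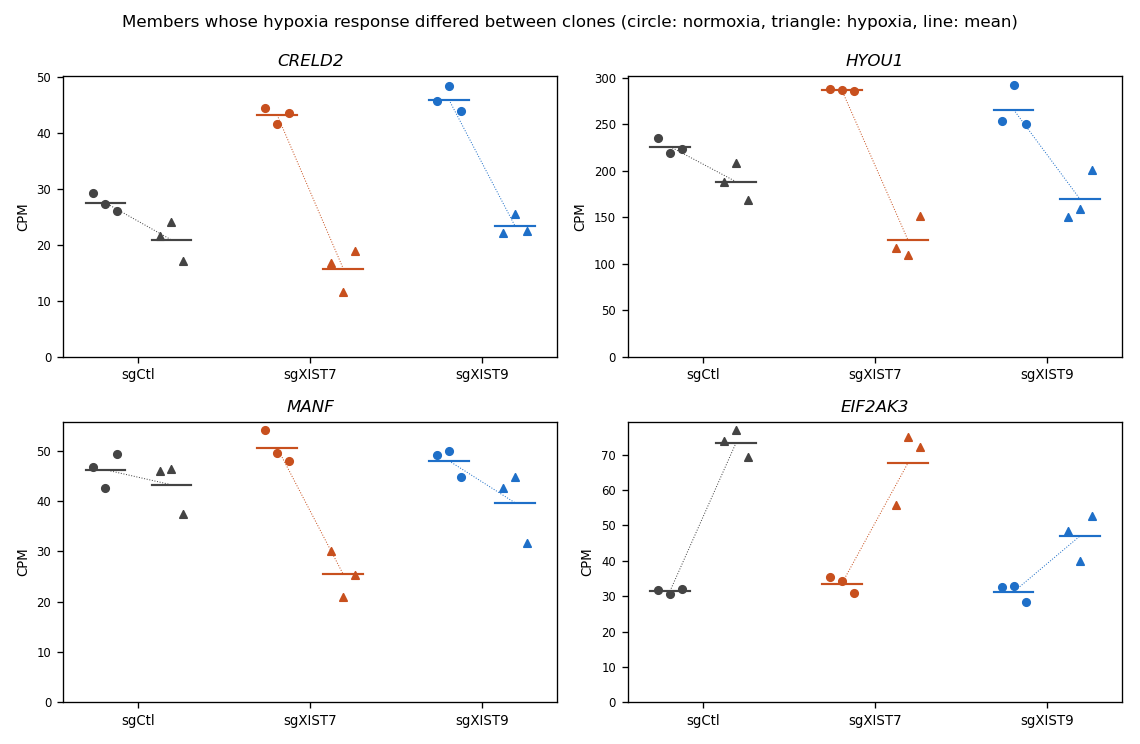
CPM from 0 in each of the 18 libraries for the 4 members whose hypoxia response differed from that of sgCtl; circles are normoxia, triangles hypoxia, solid lines group means (n = 3), dotted lines join the means of a clone. CRELD2, HYOU1 and MANF drop more steeply in sgXIST7 than in sgCtl, CRELD2 from a higher level in normoxia, and EIF2AK3 climbs less in sgXIST9.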

How the data were processed

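RNA-seq was made from OVCAR3-KRAB cells in 6 groups of 3 replicates. Per the labels and the study's methods, the authors removed ribosomal RNA before making stranded paired-end libraries, and used Trimmomatic, FastQC, HISAT2 with hg38 and featureCounts to trim, check, align and count the reads per gene. The annotation release is not given in the sources used here. The deposited values are these counts, whole numbers without normalization, at 11794375 to 24906936 per library. These totals set the counting error of low genes. A total of 2 broken lines with 0 counts were left out.

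Counts were tested with edgeR 4.0.16 (R 4.3.3, limma 3.58.1) by the robust quasi-likelihood test in 1 model of 6 groups, with TMM scaling, filterByExpr (minimum count 10, minimum total 15) and a prior count of 0.125. P-values were adjusted by Benjamini-Hochberg over the 14938 genes kept. CPM were computed on the TMM-scaled totals. Past the test means an adjusted p under 0.05. The scripts were tested on simulated data. Alternatives were DESeq2 1.42.0, other scalings and filters, only the groups compared, a replicate block, the study's stricter rule and leaving out libraries. The members and lists were chosen with earlier results of these data known. All 31 members are accounted for. Levels in every library are given for the sensors, XBP1, HSPA5 and members past the test in all 3 clones, in both KD clones at 1 oxygen level or in an interaction. Other pathway genes are named only among the 4 with the smallest adjusted p of their list, ERO1A being added beside ERO1B. The paper calls the 3 RNA-seq replicates biological. Neither it nor the labels say whether they were separate cultures. The p-values therefore rest on the spread between these samples, estimated over the 6 groups with information shared between genes.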

Additional observations from a re-analysis of the deposited data

Results flagged for a closer look

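A total of 4 members, CRELD2, HYOU1, MANF and EIF2AK3, had a hypoxia response that differed between a KD clone and sgCtl by the interaction test. The difference of the log2 fold changes, sgXIST7 minus sgCtl, was -1.07 for CRELD2 (adjusted p = 0.0079 by edgeR), -0.93 for HYOU1 (adjusted p = 0.0072) and -0.90 for MANF (adjusted p = 0.014). In each case the decrease in hypoxia was larger in sgXIST7. The difference for sgXIST9 minus sgCtl was -0.64 for EIF2AK3 (adjusted p = 0.046), whose increase was smaller in sgXIST9. The guide, the clone and the degree of XIST depletion cannot be told apart in these comparisons.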

How the results depend on the processing

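Of 105 log2 fold changes of members past the test over the 11 comparisons, 0 changed direction under any alternative, and 67 stayed past adjusted p 0.05 in every fit with that threshold (DESeq2, the scalings, filters, only the groups compared, the replicate block, and fits with libraries left out). The number past the test was 84 of 105 with only the groups compared and 104 with DESeq2. The sgCtl hypoxia count moved to 6, the sgXIST7 one to 10 and the sgXIST9 one to 5 under the study's rule. That rule also gave 0 for both KD clones against sgCtl at either oxygen level and for sgXIST7 against sgXIST9 in both, and 1 and 0 for the interactions of sgXIST7 and sgXIST9. With only the groups compared, the counts were 15 and 12 for sgXIST7 and sgXIST9 against sgCtl in normoxia and 7 and 2 in hypoxia. They were 8 and 2 for sgXIST7 against sgXIST9 in normoxia and hypoxia. Fewer samples then set the spread between replicates, which the main fit estimates over all 6 groups. The SD of log2 differences between replicates was 0.36 to 0.51 within normoxia groups and 0.41 to 0.84 within hypoxia groups. Its part in these counts was not tested. Shares of all genes were computed for the main fit only. Without replicate 3 of each hypoxia group, counts were 13 for sgXIST9 against sgCtl in hypoxia, and 12 and 6 for the interactions of sgXIST7 and sgXIST9. The sgXIST9 interaction count was 2 with DESeq2 and 0 with no filter beyond 1 count.

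With 1 library left out in turn, the number of members past the test ranged from 17 to 20 for hypoxia against normoxia in sgCtl, 19 in every case for hypoxia against normoxia in sgXIST7 and 19 to 20 for hypoxia against normoxia in sgXIST9. It ranged from 3 to 4 for sgXIST7 against sgCtl in normoxia, 1 in every case for sgXIST9 against sgCtl in normoxia, 8 to 18 for sgXIST7 against sgCtl in hypoxia and 3 to 10 for sgXIST9 against sgCtl in hypoxia. For the rest, it was 1 in every case for sgXIST7 against sgXIST9 in normoxia, 5 to 14 for sgXIST7 against sgXIST9 in hypoxia, 3 to 10 for the hypoxia response of sgXIST7 minus that of sgCtl and 0 to 4 for the hypoxia response of sgXIST9 minus that of sgCtl.

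With the replicate block, 105 of 105 values stayed past the test, and counts were 22, 19, 21 for hypoxia in sgCtl, sgXIST7 and sgXIST9, 7 and 5 for the KD clones in normoxia, 17 and 7 in hypoxia, 1 and 14 for sgXIST7 against sgXIST9, and 4 and 1 for the interactions. Over all groups, 15 of 45 pairs of the same number had deviations correlated above 0.1, between -0.073 and 0.57, with 7 of these among the hypoxia groups. All pairs exceeded 0.1 in 2 of 15 pairs of groups, sgCtl with sgXIST7 in normoxia (0.15 to 0.38) and sgCtl with sgXIST9 in hypoxia (0.20 to 0.57). The labels give no shared origin for a number, so this is at most a hint of pairing for sgCtl with sgXIST7 in normoxia. Like numbers of sgCtl in normoxia and sgCtl in hypoxia were at 0.093 to 0.11, against 0.018 or less for unlike ones. That is a weak hint of the same kind. For sgCtl with sgXIST9 in hypoxia, unlike numbers could correlate more. The first sgCtl library was at 0.28 with the second sgXIST9 library and at 0.20 with the first. The third replicates also stood apart in these groups, so the values there cannot show pairing. Precision is limited by 3 replicates a group and, for ERO1B, SDF2L1, DNAJB9 and ERN1, by low counts. Medians over the members kept their sign in hypoxia against normoxia in all fits.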
